A study of Mus musculus with 10 samples.

Results

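The transcripts of the integrin and laminin chains were followed in gastrocnemius, a calf muscle, of mice with and without desmin, the intermediate filament protein that ties the myofibrils of a muscle fiber to its membrane. Members were taken from the protein-coding genes whose symbols name an integrin alpha chain, an integrin beta chain or a laminin alpha, beta or gamma chain, and 36 of the 54232 genes in the table are reported, namely 26 integrin and 10 laminin chains. RNA sequencing covered 5 desmin knock-out mice (Des -/-) and 5 wild-type mice (Des wt/wt), all 3 months old and of 1 strain on a background of B6J and 129Sv, with the targeted allele Destm1Cba in the knock-out mice and their littermates as wild-type. The allele is carried in the germline, so desmin is missing from every cell that would make it, in heart and vessel wall as well as in skeletal muscle. The methods speak of RNA that was pooled from 5 muscles per genotype and a figure legend adds the neighbouring plantaris, whereas the table has 1 column per mouse, and each column was taken as 1 replicate. Values were regularized log (rlog) values, which means a log2 scale corrected for library size on which every gene is pulled in towards its own average, so that differences are understated, most for genes with few reads. Read counts and depth are unknown from such values.

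Integrins are receptors of the cell surface, each built from an alpha and a beta chain, that grip proteins of the extracellular matrix outside and hand the pull to the actin cytoskeleton inside through talin, kindlin and integrin-linked kinase. Laminins are cross-shaped trimers of an alpha, a beta and a gamma chain and form the sheet of the basement membrane that wraps every muscle fiber. In skeletal muscle the main pair is a laminin with the alpha2 chain outside and integrin alpha7 beta1 at the membrane, and loss of either causes congenital muscular dystrophy or myopathy. The beta2 laminin chain is enriched in the basement membrane of the neuromuscular junction.

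On the rlog scale Des itself reached 16.58 ± 0.67 (SD, n = 5) in wild-type muscle and, with the gene targeted, 11.84 ± 0.06 (SD, n = 5), with no overlap between the genotypes (exact permutation test, two-sided, p = 0.00794, the smallest that 5 against 5 mice allow). Wild-type mouse 3 stood apart from its group, with a mean correlation of 0.982 with the other wild-type mice, which reached 0.989 to 0.991 in their own, and values without it are given below for chains whose call or direction changed or whose difference moved by over 1.5 times. All 6 muscle fiber markers (Acta1, Ckm, Myh4, Myh1, Actn3 and Tnnt3) were among the tested genes. Their summed level, the log2 of their added linear values, was 21.80 to 22.01 in knock-out and 22.06 to 23.07 in wild-type mice. Myh1 went the other way (log2 difference 0.58, adjusted p = 0.132), whereas each of the other markers had a lower mean in knock-out mice. The part of these markers in the values of the chains was not tested. Since whole muscle was sequenced, fewer cells of a type and less RNA per cell cannot be told apart in any value below.

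Of the 36 chains, 34 averaged log2(10) or more across the 10 mice and were tested with limma together with all 14289 genes above that limit. Lama1 and Itgad were below it. In desmin knock-out muscle, 6 chains were higher and 1 was lower than in wild-type muscle (adjusted p under 0.05, with all tested genes counted), which is 20.6% of the tested chains, compared with 13.7% of all tested genes. By direction, 7.7% of all tested genes were higher and 5.99% lower (1100 and 856 genes), and with each mouse centred on its median 942 were higher and 979 lower. The higher chains were Itgav, Itga9, Itga5, Itgax, Itgb6 and Itgb8, and the lower one was Lamb3. Of 17 tested integrin alpha chains 4 were higher, of 8 integrin beta chains 2, of 4 laminin alpha chains none, of 3 laminin beta chains 1 was lower, and of 2 laminin gamma chains none. The median log2 difference over the 34 chains was -0.0038, and over all tested genes it was -0.0029. The 5 knock-out values lay entirely above or below the 5 wild-type values for 7 chains (20.6%), which was so for 14.4% of all tested genes (7.45% higher and 6.97% lower). All knock-out values lay above for Itgav, Itga9, Itga5, Itgax, Itgb6 and Itgb1 and below for Itgb5. The 27 chains that did not pass had log2 differences between -0.49 and 0.46, and the 95% interval of every one of them lay between -1 and 1, so that a change of 2-fold on the rlog scale fell outside each interval.

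**Figure D1:**
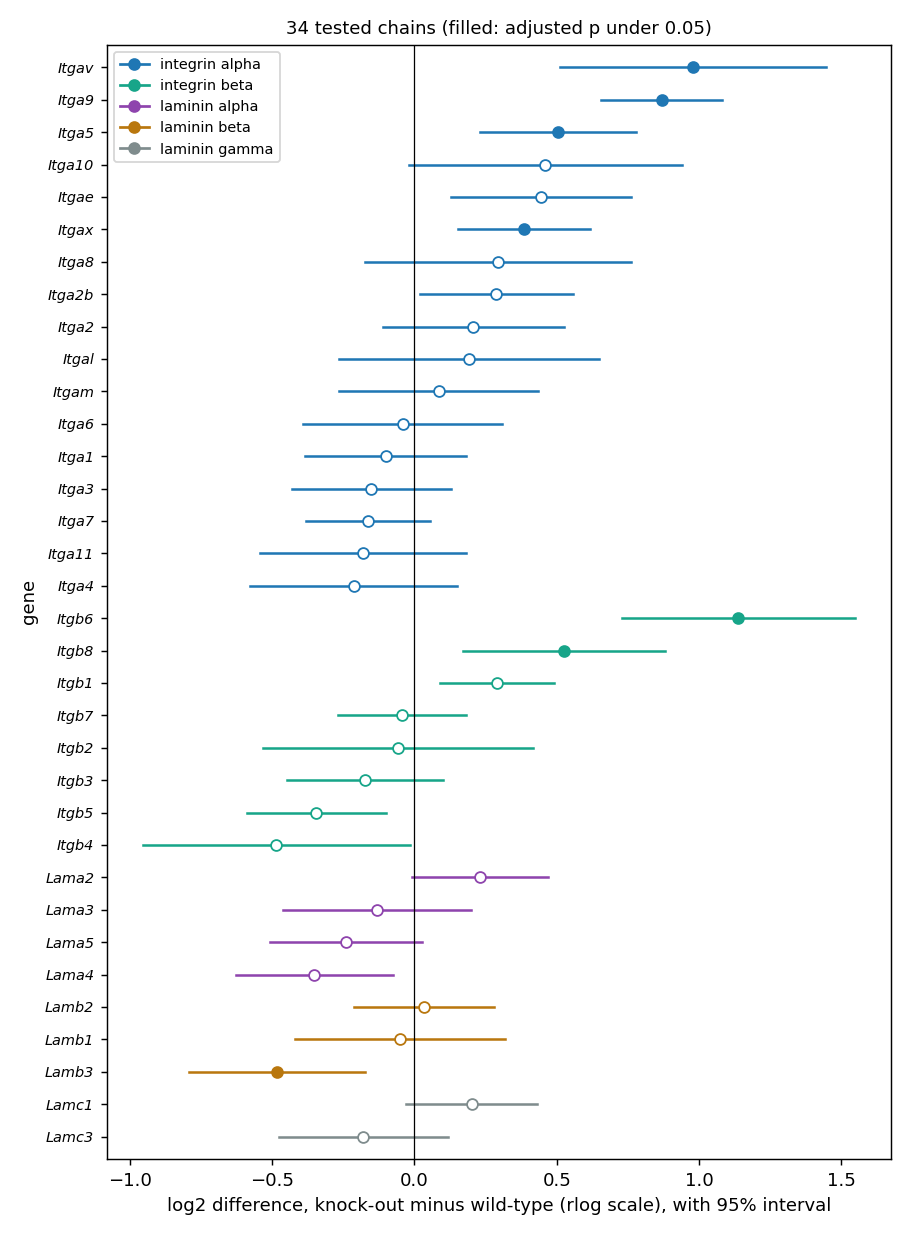
Log2 difference (knock-out minus wild-type, rlog scale) of each of the 34 tested chains, with the 95% interval from limma as a line and filled circles for an adjusted p under 0.05. Itgb6, Itgav and Itga9 lie farthest to the right, at 0.87 to 1.14, whereas Lamb3 is the filled circle on the left, at -0.48.

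The alpha v chain, encoded by Itgav, pairs with several beta chains, among which beta6 and beta8 are known to release active TGF-beta from its latent complex, and beta3 and beta5 bind vitronectin. Itgav and Itgb6 were both higher in desmin knock-out muscle, Itgb8 was higher at a low level, and Itgb3 and Itgb5 were not higher. Itgav (ENSMUSG00000027087, GRCm38 chromosome 2, 83724397 to 83806916) had rlog values of 10.95, 10.89, 11.002, 11.09 and 11.22 in knock-out mice 1 to 5 and of 10.48, 10.37, 9.05, 10.06 and 10.29 in wild-type mice 1 to 5. Every knock-out value exceeded every wild-type value, and wild-type mouse 3 was the lowest of all by a wide margin. Itgav thus rose by 0.98 on the log2 scale (standard error 0.22, adjusted p = 0.00831), and by 0.73 (standard error 0.09, adjusted p = 1.55e-04) without wild-type mouse 3. Itgb6 (ENSMUSG00000026971, chromosome 2, 60598292 to 60722643), which pairs with alpha v alone, had 11.52, 11.33, 11.19, 11.34 and 11.45 in knock-out mice and 10.47, 10.57, 9.38, 10.21 and 10.52 in wild-type mice. Here too the genotypes were apart and wild-type mouse 3 was lowest. Itgb6 rose by 1.14 on the log2 scale (standard error 0.19, adjusted p = 0.00121) with all mice, the largest difference among the 34 chains tested here, and by 0.93 (standard error 0.09, adjusted p = 1.49e-05) without that mouse.

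Itgb8 (ENSMUSG00000025321, chromosome 12, 119158022 to 119238802) had 4.85, 5.20, 4.48, 4.71 and 4.93 in knock-out mice and 4.67, 4.34, 4.08, 3.96 and 4.50 in wild-type mice, so that 4 of the 5 knock-out values lay above every wild-type value. Its log2 difference of 0.53 (standard error 0.16) was close to the threshold (adjusted p = 0.0498), and it was lost in 11 of 16 alternative settings, among them the one without wild-type mouse 3 (log2 difference 0.47, adjusted p = 0.0777). Itgb5 lay on the other side, with knock-out values of 11.39, 11.22, 11.26, 11.30 and 11.20 that all lay below the wild-type values of 11.48, 11.54, 12.05, 11.44 and 11.59. Its log2 difference of -0.34 (standard error 0.11) did not pass over all genes (adjusted p = 0.0626), but it did without wild-type mouse 3, the highest mouse, at a log2 difference of -0.24 (adjusted p = 0.0238). Itgb3 differed by -0.17 on the log2 scale (standard error 0.13, adjusted p = 0.404).

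Within each mouse, a constant shift of the library cancels in the Itgb6 value minus the Itgb5 value. It was -0.07 to 0.26 in knock-out mice and -1.01, -0.97, -2.67, -1.23 and -1.06 in wild-type mice 1 to 5, a shift of 1.48 on the log2 scale. The genotypes could not overlap here, since all knock-out values lay above the wild-type values for Itgb6 and below them for Itgb5. By contrast the Itgb6 value minus the Itgav value averaged 0.34 ± 0.16 (SD, n = 5) without desmin and 0.18 ± 0.13 (SD, n = 5) with it, and the genotypes overlapped. These within-mouse differences were picked with the values known and are given without a test.

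Itgb6 is best known from epithelia, where it is induced upon injury. Of 4 epithelial markers, Epcam (-1.32 in knock-out and -1.34 in wild-type mice), Krt5 (-2.06 in both) and Krt14 (-2.06 in both) had rlog means under 0 and only Krt8 was tested, at 6.05 ± 0.54 (SD, n = 5) without desmin and 5.24 ± 1.00 (SD, n = 5) with it (log2 difference 0.81, standard error 0.40, adjusted p = 0.216). The summed level of these markers, nearly all of it from Krt8, was 5.52 to 6.73 in knock-out and 4.53 to 6.90 in wild-type mice, and the ranges overlapped.

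The 250 bases before the start site of Itgb6, Itgav and Itgax, from RefSeq on GRCm38.p6, are shown because Itgb6 and Itgav encode the chains of 1 receptor and were both higher, and that of Itgax was the only matched promoter of a higher chain with an AP-1 motif. They lie at chr2:60722604-60722853 on the reverse strand for Itgb6, chr2:83724147-83724396 on the forward strand for Itgav and chr7:128129300-128129549 on the forward strand for Itgax. Capitals mark the AP-1 motif TGANTCA.
Itgb6: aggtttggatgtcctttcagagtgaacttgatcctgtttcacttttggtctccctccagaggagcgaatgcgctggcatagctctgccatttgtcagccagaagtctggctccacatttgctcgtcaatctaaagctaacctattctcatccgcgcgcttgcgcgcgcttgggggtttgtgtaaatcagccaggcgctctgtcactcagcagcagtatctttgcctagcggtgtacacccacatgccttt
Itgav: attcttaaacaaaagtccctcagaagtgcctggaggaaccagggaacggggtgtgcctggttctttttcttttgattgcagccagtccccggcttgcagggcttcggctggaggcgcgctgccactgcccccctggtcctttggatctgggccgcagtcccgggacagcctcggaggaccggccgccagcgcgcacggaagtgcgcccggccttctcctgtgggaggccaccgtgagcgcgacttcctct
Itgax: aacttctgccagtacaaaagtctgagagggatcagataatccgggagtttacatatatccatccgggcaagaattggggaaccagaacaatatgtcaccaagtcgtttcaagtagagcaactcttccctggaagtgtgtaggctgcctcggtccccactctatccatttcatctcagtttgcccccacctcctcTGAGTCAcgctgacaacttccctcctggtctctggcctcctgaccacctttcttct

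The motifs searched, on both strands, were the AP-1 motif TGANTCA, the MCAT motif CATTCC bound by TEAD factors, the E-box CAGCTG bound by MyoD and the GC box GGGCGG, and no motif contains another. Of the 32817 promoters in the table, 6.75% held the AP-1 motif, 12.6% the MCAT motif, 13% the E-box and 32.7% the GC box. Promoters of 23 chains were matched, 6 of them chains that were higher, and of these 6 the AP-1 motif, the E-box and the GC box were each in 1 and the MCAT motif was in none. For Itga9 the RefSeq start lies 105002 bases inside the GENCODE gene, and its window, which holds the E-box found among these 6, is counted but not printed. The RefSeq start of Lamb3 lies 94295 bases and that of Lama2 2816 bases inside the GENCODE gene, and both are counted among the 23. GC content was 52.0% for the Itgb6 promoter, 64.4% for that of Itgav and 50.0% for that of Itgax.

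Integrin alpha9 beta1 binds tenascin C, osteopontin and VCAM1, and alpha5 beta1 is the main fibronectin receptor. Both alpha chains were higher in desmin knock-out muscle. Itga9 (ENSMUSG00000039115, chromosome 9, 118606690 to 118901003) had 8.76, 8.71, 8.47, 8.69 and 8.61 in knock-out mice and 7.71, 7.91, 7.72, 7.65 and 7.92 in wild-type mice. The groups were apart by more than the whole range within either, and wild-type mouse 3 did not stand out. With a difference of 0.87 on the log2 scale (standard error 0.10, adjusted p = 5.7e-05), Itga9 had the smallest adjusted p of all chains. Gm2415, an antisense gene that overlaps Itga9, had a log2 difference of 0.0024 (adjusted p = 0.994). Itga5 (ENSMUSG00000000555, chromosome 15, 103344286 to 103366763) had 8.75, 9.22, 8.70, 8.88 and 8.86 in knock-out mice and 8.61, 8.43, 8.38, 8.04 and 8.43 in wild-type mice, again without overlap. Its log2 difference was 0.50 (standard error 0.13, adjusted p = 0.0175). Itga4, which shares beta1 and the ligand VCAM1 with Itga9, differed by -0.21 on the log2 scale (standard error 0.17, adjusted p = 0.443) and by -0.36 (standard error 0.13, adjusted p = 0.0797) without wild-type mouse 3. Itga8, a nephronectin receptor chain, differed by 0.29 (standard error 0.22, adjusted p = 0.411), which turned to -0.03 with sample weights.

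**Figure D2:**
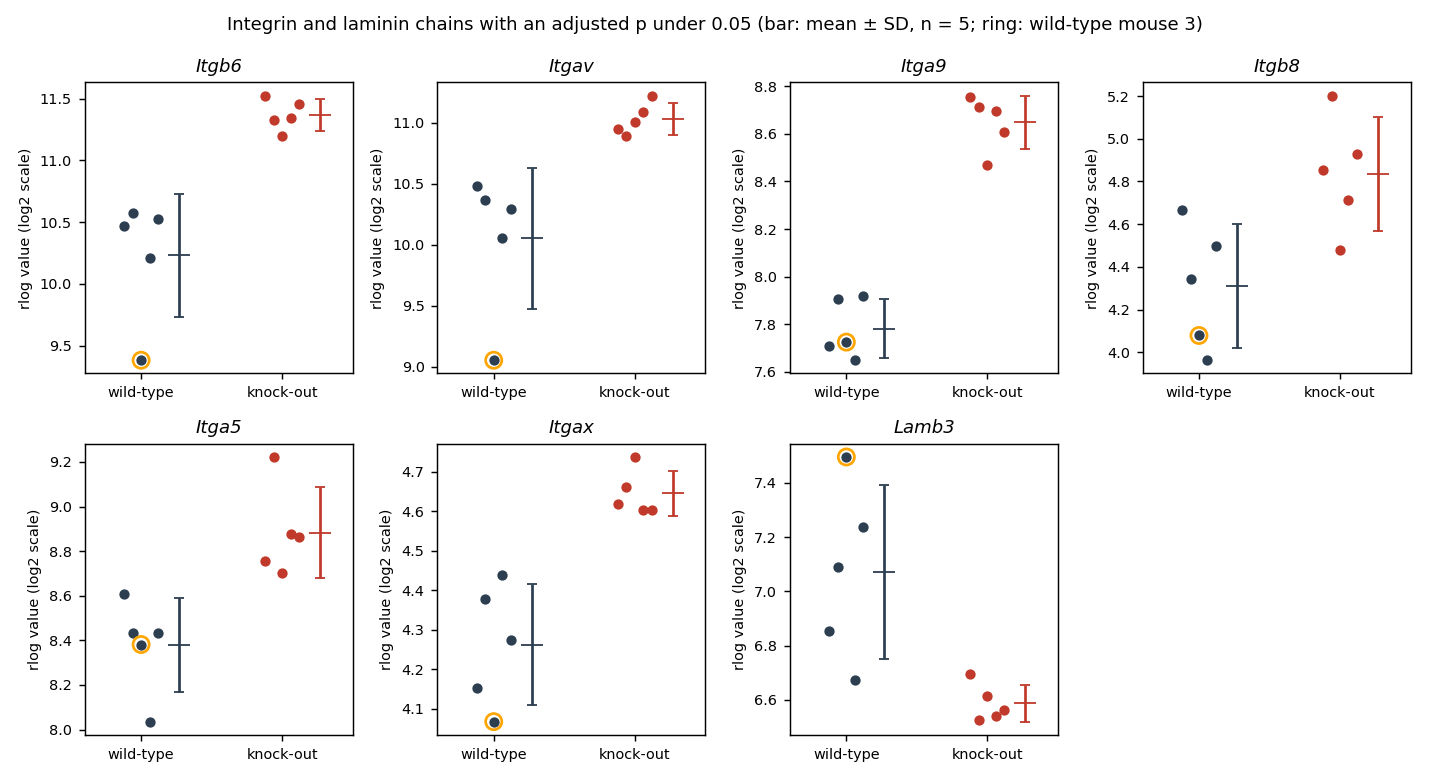
Rlog value (log2 scale) of each mouse for the 7 chains with an adjusted p under 0.05, with the mean ± SD (n = 5) beside each group and a ring around wild-type mouse 3. The genotypes do not overlap for Itgb6, Itgav, Itga9, Itga5 and Itgax, whereas for Itgb8 and Lamb3 1 mouse of the knock-out group lies within the wild-type range.

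Of 21 other integrin ligands, 16 were tested, and 7 were higher and 2 lower without desmin, the median log2 difference being 0.41. Over all tested genes 7.7% were higher and 5.99% lower, with a median of -0.0029. The list was written with earlier results of these data known. The 4 with the smallest adjusted p were Edil3, a ligand of alpha v integrins (log2 difference 1.18, standard error 0.11, adjusted p = 1.5e-05), Postn, the matrix protein periostin (1.95, standard error 0.21, adjusted p = 3.0e-05), Thbs4, a thrombospondin of tendon and muscle (0.96, standard error 0.16, adjusted p = 0.00143) and Spp1, which encodes osteopontin (1.33, standard error 0.26, adjusted p = 0.00356). Edil3 had 4.99 to 5.33 in knock-out and 3.77 to 4.13 in wild-type mice, and Spp1 had 7.55 to 7.90 and 5.43 to 7.23. The ligands of alpha9 and alpha5 given above were among those that were higher, namely Tnc with a log2 difference of 1.01 (adjusted p = 0.00431), Spp1 and Fn1 with 0.52 (adjusted p = 0.0169), whereas Vcam1 had 0.21 (adjusted p = 0.421). Vitronectin (Vtn), the ligand of beta3 and beta5, differed by -0.58 on the log2 scale (standard error 0.21, adjusted p = 0.083). Both lower ligands belong to vessels, Vwf (log2 difference -0.62, adjusted p = 0.00619) and Icam2 (log2 difference -0.46, adjusted p = 0.0362, lost in 8 of 17 alternative settings).

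The integrin and laminin of adult muscle fibers did not pass. Itga7, the alpha chain of the fiber's laminin receptor, had 11.86, 11.76, 11.86, 11.75 and 11.71 in knock-out mice and 11.77, 11.93, 12.15, 12.15 and 11.75 in wild-type mice, with a log2 difference of -0.16 (95% interval -0.38 to 0.05, adjusted p = 0.317). Itgb1, the beta chain of most of these receptors, had 13.45, 13.46, 13.43, 13.53 and 13.51 in knock-out mice and 13.35, 13.28, 13.21, 12.94 and 13.16 in wild-type mice. All knock-out values of Itgb1 lay above all wild-type values, and its log2 difference of 0.29 (standard error 0.09) did not pass (adjusted p = 0.0557). It passed in 4 of 17 alternative settings, among them the one without wild-type mouse 3 (log2 difference 0.29, adjusted p = 0.0252). The Itgb1 value minus the Itga7 value averaged 1.69 ± 0.11 (SD, n = 5) without desmin and 1.24 ± 0.31 (SD, n = 5) with it, with ranges of 1.58 to 1.81 and 0.79 to 1.58 that met at their ends.

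Lama2, the alpha chain of that laminin, had 10.73, 10.48, 10.31, 10.42 and 10.32 in knock-out mice and 10.32, 10.39, 9.96, 10.11 and 10.32 in wild-type mice, and 3 of the 5 knock-out values lay above every wild-type value. Its log2 difference was 0.23 (95% interval -0.01 to 0.47, adjusted p = 0.196). Lamc1, the gamma chain of nearly all laminins of muscle, had a log2 difference of 0.20 (95% interval -0.03 to 0.43, adjusted p = 0.245), with 4 of 5 knock-out values above every wild-type value. Lamb1 had a log2 difference of -0.05 (95% interval -0.42 to 0.32, adjusted p = 0.874), and of -0.15 without wild-type mouse 3. Lamb2, the synaptic beta chain, had 11.52 to 11.91 in knock-out and 11.36 to 11.91 in wild-type mice, a log2 difference of 0.03 (95% interval -0.21 to 0.28, adjusted p = 0.875) that turned to -0.0089 with median centring and was 0.10 without wild-type mouse 3. The Lamb2 value minus the Lamb1 value was 2.88 ± 0.34 (SD, n = 5) and 2.80 ± 0.50 (SD, n = 5) in knock-out and wild-type mice.

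The laminin alpha chains of vessels had lower means in desmin knock-out muscle, without passing the threshold. Lama4, found in the basement membrane of capillaries and of the synapse, had 8.81, 8.53, 8.06, 8.55 and 8.54 in knock-out mice and 8.79, 8.97, 8.74, 8.76 and 9.002 in wild-type mice, a difference of -0.35 on the log2 scale (standard error 0.13, adjusted p = 0.088). Lama5 had 9.30 to 9.65 in knock-out and 9.31 to 9.95 in wild-type mice, a difference of -0.24 on the log2 scale (standard error 0.12, adjusted p = 0.229), and -0.34 (adjusted p = 0.0242) without wild-type mouse 3, the lowest wild-type mouse. Set against Lama2 within each mouse, the Lama2 value minus the Lama4 value was 1.93, 1.94, 2.24, 1.87 and 1.78 in knock-out mice and 1.54, 1.42, 1.23, 1.34 and 1.31 in wild-type mice, and the Lama2 value minus the Lama5 value was 0.91 to 1.08 and 0.16 to 0.75. Neither of these differences overlapped between the genotypes. As with Itgb6 and Itgb5, the pairs were picked with the values known and are given without a test. Of 7 endothelial markers, all were tested and 3 were lower, Cdh5 (log2 difference -0.52, adjusted p = 0.00797), Pecam1 (log2 difference -0.49, adjusted p = 0.013) and Tek (log2 difference -0.41, adjusted p = 0.0474), whose call was lost in 12 of 17 alternative settings. The summed level of the list was 11.78 to 12.23 in knock-out and 12.21 to 12.51 in wild-type mice. Their part in the values of Lama4 and Lama5 was not tested.

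**Figure D3:**
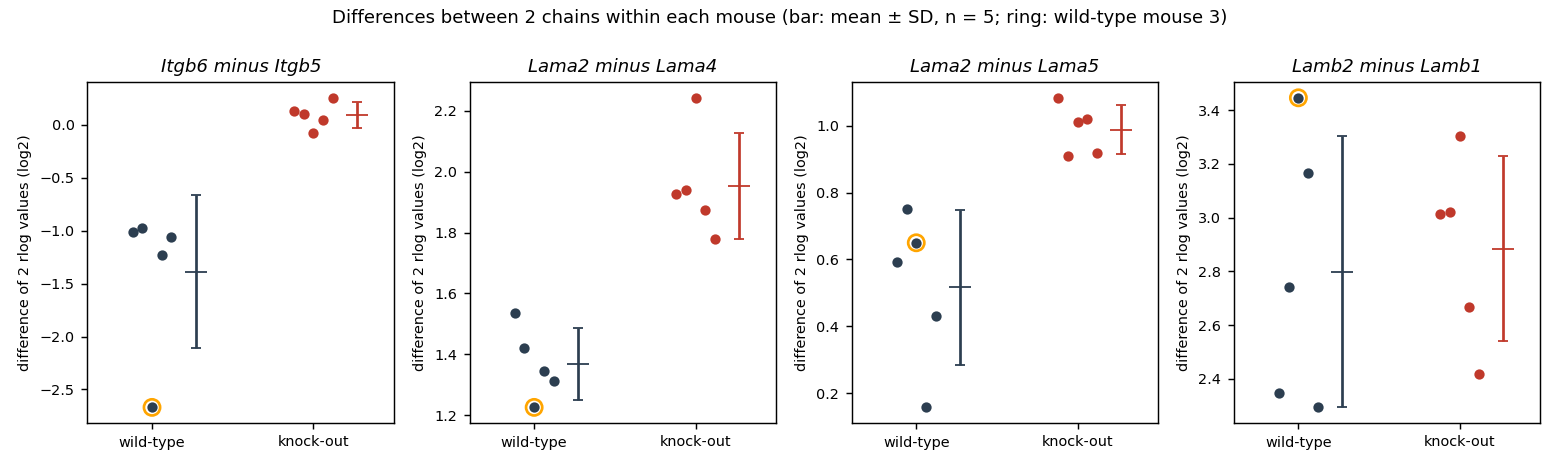
Difference between the rlog values of a pair of chains (log2) within each mouse, with the mean ± SD (n = 5) beside each group and a ring around wild-type mouse 3. Knock-out and wild-type mice are apart for Itgb6 minus Itgb5, Lama2 minus Lama4 and Lama2 minus Lama5, and overlap for Lamb2 minus Lamb1. The pairs were picked with the values known, and for Itgb6 minus Itgb5 the gap follows from the values of each chain.

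Lama3 and Lamb3 encode the alpha3 and beta3 chains, which are best known from the anchoring laminin of skin. Lamb3 (ENSMUSG00000026639, chromosome 1, 193207699 to 193343878), the beta3 chain, had 6.69, 6.53, 6.61, 6.54 and 6.56 in knock-out mice and 6.85, 7.09, 7.50, 6.67 and 7.24 in wild-type mice, so that 4 of 5 knock-out mice lay below all wild-type mice. Its log2 difference of -0.48 (standard error 0.14, adjusted p = 0.0398) was lost in 9 of 17 alternative settings, with an adjusted p up to 0.0902. Lama3 had 4.28 to 5.02 in knock-out and 4.62 to 5.06 in wild-type mice, a difference of -0.13 on the log2 scale (standard error 0.15, adjusted p = 0.616).

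Lamb3 lies on the chromosome of the targeted gene, 118 Mb from Des. Lamc1 lies on it too and closer, 77.85 Mb from Des, with the log2 difference of 0.20 given above (adjusted p = 0.245). The Lamb3 locus overlaps G0s2 (log2 difference -0.31, adjusted p = 0.372) and Hsd11b1 (-0.12, adjusted p = 0.729) on the opposite strand and Gm37691 (-0.52, adjusted p = 0.0323) on the same strand. The library kit keeps the strand, but whether reads were counted by strand is not given in the sources used here, so that reads in the shared stretch cannot be assigned to 1 of the genes. The receptor chains of the skin laminin had log2 differences of -0.15 for Itga3 (adjusted p = 0.482), -0.04 for Itga6 (adjusted p = 0.894) and -0.49 for Itgb4 (standard error 0.22, adjusted p = 0.166). Without wild-type mouse 3 it was -0.05 for Itga3 and -0.10 for Itga6. Itgb4, the hemidesmosome chain, also sits on Schwann cells, and among 8 Schwann cell markers 1 was higher, Egr2 (log2 difference 1.02, adjusted p = 4.5e-04), with a summed level of 10.55 to 10.84 in knock-out and 10.28 to 10.88 in wild-type mice.

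None of the collagen-binding alpha chains passed. Itga1, the most abundant of them per length, had a log2 difference of -0.10 (95% interval -0.38 to 0.18; -0.19 without wild-type mouse 3), Itga11 of -0.18 (-0.54 to 0.18), Itga2 of 0.21 (-0.11 to 0.52) and Itga10 of 0.46 (-0.02 to 0.94). Of 6 fibroblast markers 2 were higher, Col1a1 (log2 difference 0.50, adjusted p = 0.0437) and Col3a1 (0.52, adjusted p = 0.0447), calls that were lost in 10 and 11 of 17 alternative settings, median centring among them. The summed level of the list was 13.59 to 14.20 in knock-out and 13.19 to 14.17 in wild-type mice. Of 3 tendon markers 2 were higher, Tnmd (1.51, adjusted p = 8.2e-04) and Scx (0.77, adjusted p = 0.00541), and the summed level of the list, 9.39 to 9.95 in knock-out and 8.39 to 9.20 in wild-type mice, did not overlap. Their part in the higher chains was not tested.

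The integrins of blood cells lay at low levels. Itgax (ENSMUSG00000030789, chromosome 7, 128129547 to 128150657), which marks dendritic cells and some macrophages, had 4.62, 4.66, 4.74, 4.60 and 4.60 in knock-out mice and 4.15, 4.38, 4.07, 4.44 and 4.27 in wild-type mice. The genotypes were apart, yet the call of the log2 difference, 0.38 with a standard error of 0.11 (adjusted p = 0.0302), was lost in 9 of 16 alternative settings, with an adjusted p up to 0.0925. Itgae, the alpha chain of resident T cells and some dendritic cells, differed by 0.44 on the log2 scale (standard error 0.15, adjusted p = 0.0621). For the other leukocyte chains the log2 difference was 0.19 for Itgal, 0.08 for Itgam, -0.06 for Itgb2 and -0.04 for Itgb7, with adjusted p from 0.599 to 0.891. Without wild-type mouse 3 it was 0.31 for Itgal and turned to -0.0028 for Itgam and 0.01 for Itgb2. Itga2b, the platelet chain, had 0.29 (adjusted p = 0.153). None of 10 leukocyte and macrophage markers passed (limma), and their summed level overlapped, with 10.07 to 10.57 in knock-out and 10.15 to 10.49 in wild-type mice. None of 6 T cell markers reached the expression limit. Of 4 neutrophil markers 2 were tested and S100a9 was lower (log2 difference -1.18, adjusted p = 2.5e-04), and of 4 platelet markers the 1 that was tested did not pass.

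Per length, that is the rlog value minus the log2 of the exon length in kb, Itgb1 was the most abundant chain in wild-type muscle (11.16 ± 0.16, SD, n = 5), followed by Itgb5 (9.79 ± 0.25), Lamb2 (9.04 ± 0.21), Itga7 (8.93 ± 0.20), Lamc1 (8.34 ± 0.09), Itgb6 (7.40 ± 0.49) and Itgav (6.63 ± 0.58). Lamb2 and Itga7, as well as Lama5 (6.19 ± 0.25), Lama2 (6.19 ± 0.18) and Itga5 (6.08 ± 0.21), were closer to their neighbours in this order than the spread between mice. In desmin knock-out muscle Itgb6 (8.54 ± 0.13) stood level with Lamc1 (8.54 ± 0.21), at ranks 5 and 6. Itga9 went from rank 15 to 11 of 36. Among the alpha chains of laminin, Lama2 and Lama5 were level in wild-type muscle, whereas in knock-out muscle Lama2 (6.42 ± 0.17) lay above Lama5 (5.95 ± 0.14). Lama1 (-2.90 ± 0.12) and Itgad (-3.80 ± 0.0044) were last, and without the expression limit their log2 differences were 0.04 (adjusted p = 0.821) and 0.0059 (adjusted p = 0.752). Itgad overlaps Cox6a2, an abundant gene of muscle mitochondria, on the opposite strand.

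**Figure D4:**
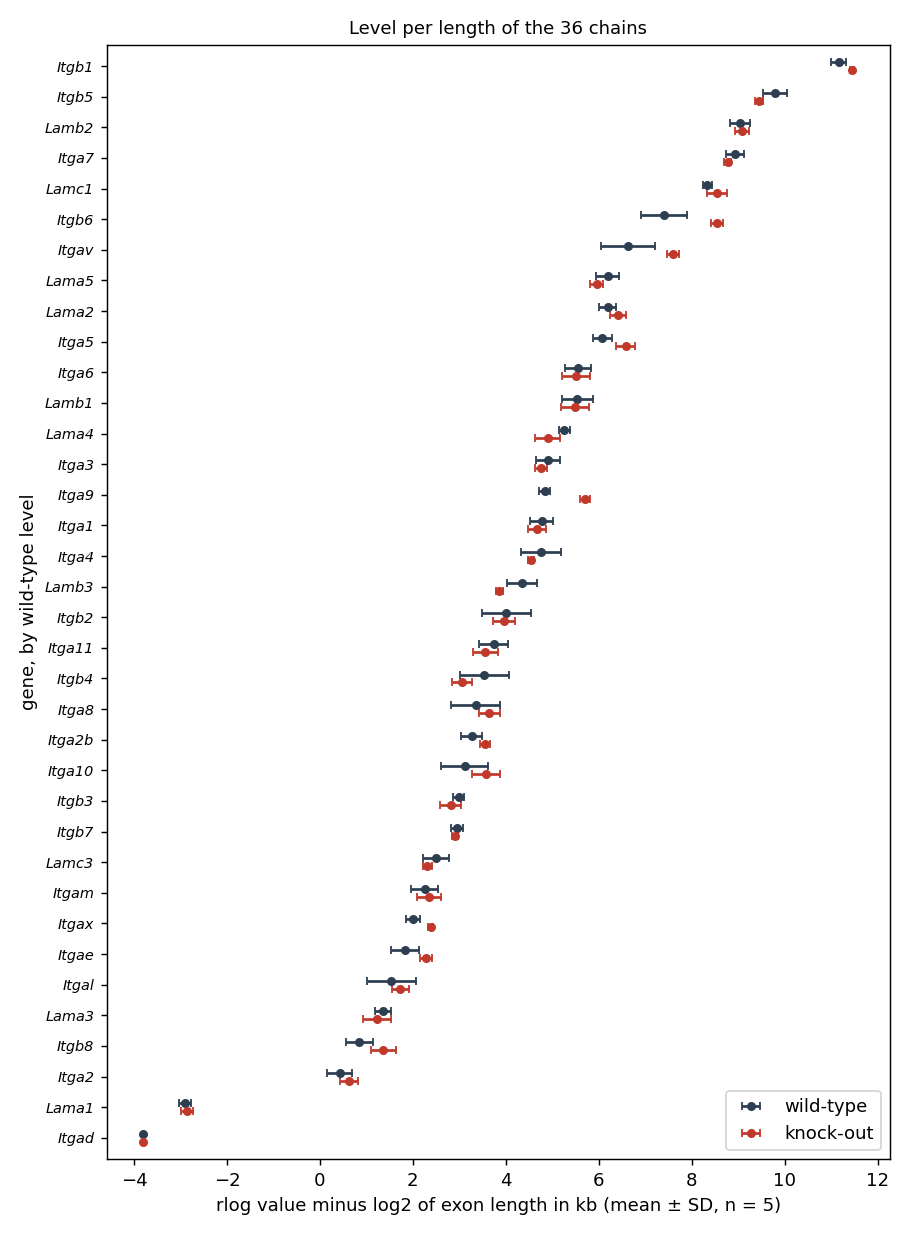
Level per length of the 36 chains (rlog value minus log2 of the exon length in kb, mean ± SD, n = 5) in wild-type and knock-out muscle, ordered by the wild-type level. Itgb1 stands at the top at 11.16 and Itgad at the bottom at -3.80, and the knock-out points of Itgb6, Itgav and Itga9 lie to the right of their wild-type points.

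Of 29 genes that link integrins to actin 27 were tested, and 3 were higher and 2 lower without desmin, the median log2 difference being -0.15. Over all tested genes 7.7% were higher and 5.99% lower, and the counts of this list lay near these shares. Fermt1 had the value 0 in all mice. Parvg (log2 difference 0.68, adjusted p = 0.0249) and Bcar1 (log2 difference -0.30, adjusted p = 0.0478) were among those that passed, with the call lost in 4 of 16 alternative settings for Parvg and in 9 of 17 for Bcar1. Tns3, a tensin that binds the tail of integrin beta chains, was higher by 0.66 (standard error 0.09, adjusted p = 2.0e-04), with 9.26 to 9.51 in knock-out and 8.65 to 8.85 in wild-type mice. The PINCH genes, whose proteins hold integrin-linked kinase in its complex, moved apart, with Lims1 higher (log2 difference 0.64, standard error 0.13, adjusted p = 0.00548) and Lims2 lower (log2 difference -0.60, standard error 0.13, adjusted p = 0.0074). Lims1 had 11.51 to 11.85 in knock-out and 10.73 to 11.48 in wild-type mice, and Lims2 had 8.50 to 9.15 and 9.07 to 9.56. The core of the link did not pass, with log2 differences of 0.16 for Tln1 (adjusted p = 0.392), -0.25 for Tln2 (adjusted p = 0.358), -0.23 for the kindlin gene Fermt2 (adjusted p = 0.164) and -0.15 for Ilk (adjusted p = 0.436).

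Among 14 basement membrane partners of laminin 13 were tested and 2 were higher, where 7.7% of all tested genes were, Col4a5, a minor type IV collagen chain (log2 difference 0.81, standard error 0.17, adjusted p = 0.00498), and Ntn4, a netrin that binds laminin gamma chains (log2 difference 0.66, standard error 0.16, adjusted p = 0.015), with a median of -0.0037 over the list. The main collagen chains Col4a1 and Col4a2 had -0.13 and -0.10 (adjusted p = 0.485 and 0.514), the nidogens Nid1 and Nid2 -0.14 and -0.0037 (adjusted p = 0.608 and 0.992), and the perlecan gene Hspg2 0.02 (adjusted p = 0.93). None of the 8 other laminin receptor genes, dystroglycan (Dag1) and the sarcoglycans among them, passed (limma), with a median of -0.08 and, for Dag1, a difference of -0.17 on the log2 scale (standard error 0.09, adjusted p = 0.225).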

How the data were processed

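Gastrocnemius RNA of 5 desmin knock-out and 5 wild-type mice, grouped by the labels, was analysed. The submitters' processing notes name cutadapt 2.5, STAR 2.5.4a, featureCounts (Subread 1.6.1), DESeq2 and GRCm38. The deposited values are log2-scale rlog values by the authors, scaled and shrunken, with settings not given in the sources used here. Count tests were thus not applicable, and depth and counting error are unknown.

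The 14289 genes averaging log2(10) or more entered limma 3.58.1 under R 4.3.3, with lmFit and eBayes (trend), two-sided p-values and Benjamini-Hochberg adjustment over all of them. Every adjusted p is from this test. Symbols (54079 of 54232 genes), biotypes, positions and exon lengths were taken from GENCODE M21 (GRCm38).

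Some genes of the rule and lists are not reported here, though they stayed in the fit. Members, gene lists and named genes were chosen with earlier results of these data known. Named were Des, every chain passing the test, the main chains of muscle, up to 4 genes per partner list and every passing marker, and other genes were named after their values were seen. Among marker lists not described elsewhere, smooth muscle and pericyte (6 genes) had Cspg4 higher and Kcnj8 lower, satellite cell (4 genes) none, erythroid (4 genes) Hbb-bs and Alas2 lower, and muscle fiber Myh4 and Actn3 lower.

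Alternatives were each mouse left out, a replicate block, sample weights, 1 prior variance for all genes, quantile normalization, centring on the median, no expression limit or one of log2(50), and an adjusted p under 0.01.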

Additional observations from a re-analysis of the deposited data

Results flagged for a closer look

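In groups of 5 mice, the highest or lowest mouse was compared with its nearest neighbour (Dixon's test, critical value 0.71), over the 132 groups given by both genotypes of each gene followed. A mouse far from the other 4 was found in 10 groups, where chance gives about 6.6. Among the 34 tested chains Itgb4 and Itgb5 were affected. Knock-out mouse 2 had the lowest Itgb4 value of its group (5.48). For Itgb5 wild-type mouse 3 had the highest value (12.05), and without this mouse its log2 difference was -0.24 (adjusted p = 0.0238, limma). The same mouse was highest among wild-type mice for Des (17.74), Hbb-bs (12.44), Alas2 (8.28) and Actn3 (19.34). Hbb-bs has a near-identical copy, so its reads can be split. Knock-out mouse 3 was lowest for Col3a1 (11.60) and Kcnj8 (7.62) and highest for Egr2 (6.06), and knock-out mouse 1 was highest for Col4a5 (7.40).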

How the results depend on the processing

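Itgav, Itga9, Itga5 and Itgb6 kept their direction and an adjusted p under 0.05 in all 17 alternative fits, whereas Itgax, Itgb8 and Lamb3 lost the threshold in some. Of the 7 chains that passed, 4 remained without an expression limit, 3 at an adjusted p under 0.01 (Itga5 lost as well), and 7 with sample weights, where 14 chains passed (8 higher, 6 lower) and 29.5% of all tested genes did. With 1 mouse left out, 4 to 9 chains passed, 4 without knock-out mouse 1, 2, 4 or 5 each and 9 without wild-type mouse 3, 6 of them among the 7. Over all tested genes, 4220 passed with sample weights and 994 at an adjusted p under 0.01, against 1956. For the partner genes the count of 16 moved to 26 and 10 under these settings, and for the cell type markers the count of 15 moved to 23 and 6, to 8 without an expression limit, and to 9 without knock-out mouse 4. Besides the calls given as lost with the genes above, Myh4 lost its call in 11, Thbs2 in 8, Hbb-bs in 4, Actn3 in 3 and Alas2 and Fn1 in 1 of 17 alternative fits each. Among the 34 tested chains the direction reversed for 7, none of which passed, namely for Lamb2 with median centring (-0.0089), for Itga8 (-0.0278) and Itgam (-0.046) with sample weights, and with 1 mouse left out for Lamb2 (-0.039 to 0.0982), Lamb1 (-0.148 to 0.0681), Itga6 (-0.141 to 0.065), Itgam (-0.0028 to 0.173), Itgb2 (-0.281 to 0.039) and Itgb7 (-0.0798 to 0.0013). The cause of these shifts was not tested. Same-numbered mice did not deviate together (correlations -0.22 to 0.07, and no mouse correlated best with its own number). No pairing by number was thus seen, though this check cannot exclude one. With the replicate number as a block, 5 chains passed, Itgax and Lamb3 being lost. Shrinkage and unknown depth limit the reading of low chains such as Itgb8, Itgax, Lama1 and Itgad.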
